A study of Homo sapiens with 42 samples.

Results

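The 46 genes described here encode the initiation and elongation factors of cytosolic translation, and they were taken by symbol from a count table with 57353 gene names. Among them, 10 are known 5′ terminal oligopyrimidine (TOP) messages (EEF1A1, EEF1B2, EEF1D, EEF1G, EEF2, EIF3E, EIF3F, EIF3H, EIF4B and PABPC1), and the other 36 are called the other factors. All 46 were in the table and 44 passed the filter on low counts, 9 TOP factors and 35 other factors. EEF1G had 0 counts in all 42 libraries, where its exons overlap another gene on the same strand, and EIF4A1 had 0 to 74 counts per library with a median of 22, while its 13 pseudogene rows together held 8621% of its own counts. Neither was tested. Gene positions are from GENCODE v44 on GRCh38. The cells were MOLM-13, an acute myeloid leukemia (AML) line with an activating duplication inside the FLT3 receptor gene (FLT3-ITD), so every group shares that allele and every group is 1 cell line. They were grown in RPMI, a standard medium, or in hBMSC-CM, an equal mix of RPMI and medium from HS-5 cells, a stromal line from human bone marrow. In RPMI the cells received vehicle, the FLT3 inhibitor quizartinib (AC220) at 3 nM, or quizartinib with the mTORC1 inhibitor everolimus at 10 nM (combo), each for 12 hours. In hBMSC-CM the same 3 treatments and everolimus alone were given. Each of the 7 conditions had 3 cultures, and 2 libraries were made from each, 1 of its total poly(A) RNA (input) and 1 of its heavy polysomes, which hold messages with several ribosomes.

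Translation starts when the eIF4F complex, made of the cap-binding protein eIF4E, the scaffold eIF4G and the helicase eIF4A, brings a ribosomal small subunit with eIF3 and an eIF2-bound initiator tRNA to the capped end of a message. The elongation factors then deliver aminoacyl-tRNAs (eEF1A, recharged by the eEF1B subunits) and move the ribosome along (eEF2). A TOP message begins with a cytidine followed by a run of pyrimidines right after the cap, and its loading on ribosomes depends on mTORC1, which also phosphorylates and releases the eIF4E-binding repressors such as EIF4EBP1. FLT3 signals through PI3K and AKT to mTORC1, so the comparisons ask how these messages respond when FLT3, mTORC1 or both are inhibited, with and without stromal factors.

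The first bases of the messages are shown because a TOP message is defined by its pyrimidine run, although the groups here follow a list of known TOP messages and not the run. RefSeq start sites (assembly GRCh38.p14) were available for 36 of the 46 genes. EIF3E, EIF4EBP1, EIF3A, EIF3L, EIF2S2, EEF1D, EIF3H, PABPC4, EIF3G and PABPC1 had no entry. Each line gives 30 bases, 10 before the start and 20 from it on, on the strand of the gene. Capitals mark a run that begins with C at the start itself and goes on with at least 4 bases that are C or T. The 5 TOP factors with such a run are listed first.
EEF1A1, chr6:73521013-73521042, minus strand: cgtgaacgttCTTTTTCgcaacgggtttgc
EEF1B2, chr2:206159885-206159914, plus strand: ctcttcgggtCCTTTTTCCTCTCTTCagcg
EEF1B2, its other start without a run, chr2:206159599-206159628, plus strand: aagtggccccagcctcgaggccgggcgtct
EEF2, chr19:3985444-3985473, minus strand: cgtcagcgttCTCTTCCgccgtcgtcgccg
EIF3F, chr11:7987327-7987356, plus strand: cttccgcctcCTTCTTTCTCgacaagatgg
EIF4B, chr12:53006446-53006475, plus strand: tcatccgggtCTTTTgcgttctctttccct
Among the other factors, 5 also had a run.
EIF2S3, chrX:24054946-24054975, plus strand: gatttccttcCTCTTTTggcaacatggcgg
EIF3D, chr22:36529147-36529176, minus strand: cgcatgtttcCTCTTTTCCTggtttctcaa
EIF3K, chr19:38619178-38619207, plus strand: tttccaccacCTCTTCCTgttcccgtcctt
EIF3M, chr11:32583821-32583850, plus strand: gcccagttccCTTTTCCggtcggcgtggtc
EIF4A2, chr3:186783567-186783596, plus strand: gcgccgctgtCTTTTCagtcgggcgctgag
Starts without a run are shown for 4 other factors that changed in the input RNA.
EIF2S1, chr14:67360318-67360347, plus strand: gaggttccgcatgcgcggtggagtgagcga
EIF3B, chr7:2354817-2354846, plus strand: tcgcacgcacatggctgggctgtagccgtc
EIF4E, chr4:98929114-98929143, minus strand: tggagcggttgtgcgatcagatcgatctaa
PDCD4, chr10:110871918-110871947, plus strand: gagaagggccagagactctccgaggcggcg
The run was at a start of 5 of the 6 TOP factors with an entry (EEF1G had none) and of 5 of the 30 other factors with an entry. These are counts of genes with the run at any start, and 5.14% of all 27305 genes in the table had it so. Of all 35116 starts, 4.07% had it. Of the 36 genes with an entry 8 had more than 1 start, and EEF1B2 had the run at 1 of its 2 starts. An annotated start is a description of the gene model, and the start used in these cells was not measured.

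Total counts were 19.4 to 37.2 M per input library and 21.5 to 38.8 M per polysome library. The 9 AML and myeloid markers checked summed to 1272 to 2088 CPM (counts scaled to a common library size) in input, with CD68 at 1.03 CPM or less in input. The 9 stromal markers summed to 2.61 to 46.9 CPM, of which COL1A1 reached 38.8 CPM, while COL3A1 and POSTN were at 0 in every library. TOP factors took 2.22 to 4.86% of the input counts and 1.29 to 2.84% of the polysome counts, and the other factors took 0.681 to 1.02% and 0.596 to 0.992%. The 3 cultures with everolimus alone stood apart before any comparison. They differed from each other with a mean chi-square per gene of 5.02 to 7.69 in input and 7.54 to 19.1 in polysomes, against 32.4 to 238 and 34.3 to 338 among the cultures of the other 6 conditions. The study describes its replicates as biological, and the reason for the small spread was not tested. Results that this touches are given with and without these 6 libraries. The widest input pair, 238, was that of cultures 1 and 3 with vehicle in hBMSC-CM. The input of that culture 3 had the fewest genes with a count of all inputs, 18546. Its AML and myeloid markers summed to 1318 CPM, against 1773 and 1810 CPM in cultures 1 and 2. A level is a share of a library, so a change in the number of cells or in total RNA does not show in it. The study reports lower RNA yields with quizartinib and with combo, and a larger loss from heavy polysomes than from input. A polysome value relative to input is therefore a change in share, not in amount, also where it is positive.

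In vehicle-treated cells in RPMI the elongation factors EEF1A1, EEF2, EEF1B2 and EIF5A had the highest mean input levels of the group. Per kilobase of the canonical transcript, and scaled by the trimmed mean of M values (TMM), EEF1A1 had an input level of 4983 ± 356 CPM per kb (SD, n = 3), EEF2 had 1595 ± 240, EEF1B2 had 1000.2 ± 90.9 and EIF5A had 724 ± 55.3. The values of each of the first 3 did not overlap those of the next in order, and EIF5A overlapped EIF3K at 682 ± 57.6. EEF1D, also an elongation factor, was at rank 9 with 398 ± 74.5. At the low end was EEF2K, the kinase that slows eEF2, at 4.46 ± 0.60 CPM per kb, below EIF2B2 at 5.62 ± 0.62 and with no overlap. EEF1A1 has 39 pseudogene rows in the table that held 11.4% as many counts as the gene itself, so its count depends on how reads of near-identical copies were assigned. For 25 of the 46 genes an exon overlaps that of a gene on the opposite strand, and the strand setting of the counting is not given in the sources used here.

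In the input RNA of cells in RPMI, quizartinib lowered many of the other factors and no TOP factor passed the test in either direction. With edgeR's quasi-likelihood test and Benjamini-Hochberg adjustment over 12939 genes, 20 of the 44 factors were called at an adjusted p under 0.05, 19 lower and 1 higher, where 34.6% of all genes tested were called. All 20 were other factors, 20 of 35, against 0 of 9 TOP factors. Of the TOP factors 1 had an unadjusted p under 0.05 by edgeR, as did 5567 of all 12939 genes. The median log2 change was -0.69 over the other factors, 0.23 over the TOP factors and 0.08 over all genes, and 8 of the 9 TOP factors had a positive value. DESeq2 and limma voom each called 20 factors. Without the everolimus-alone libraries edgeR called 16, and EIF4E, EIF5B, EIF3C and EIF4H were no longer called. The 9 stromal markers summed to 2.61 to 7.09 CPM in the vehicle inputs and 14.1 to 46.9 CPM in the quizartinib inputs, with COL3A1, POSTN and THY1 at 0 in every input library, and their part in the result was not tested.

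**Figure D1:**
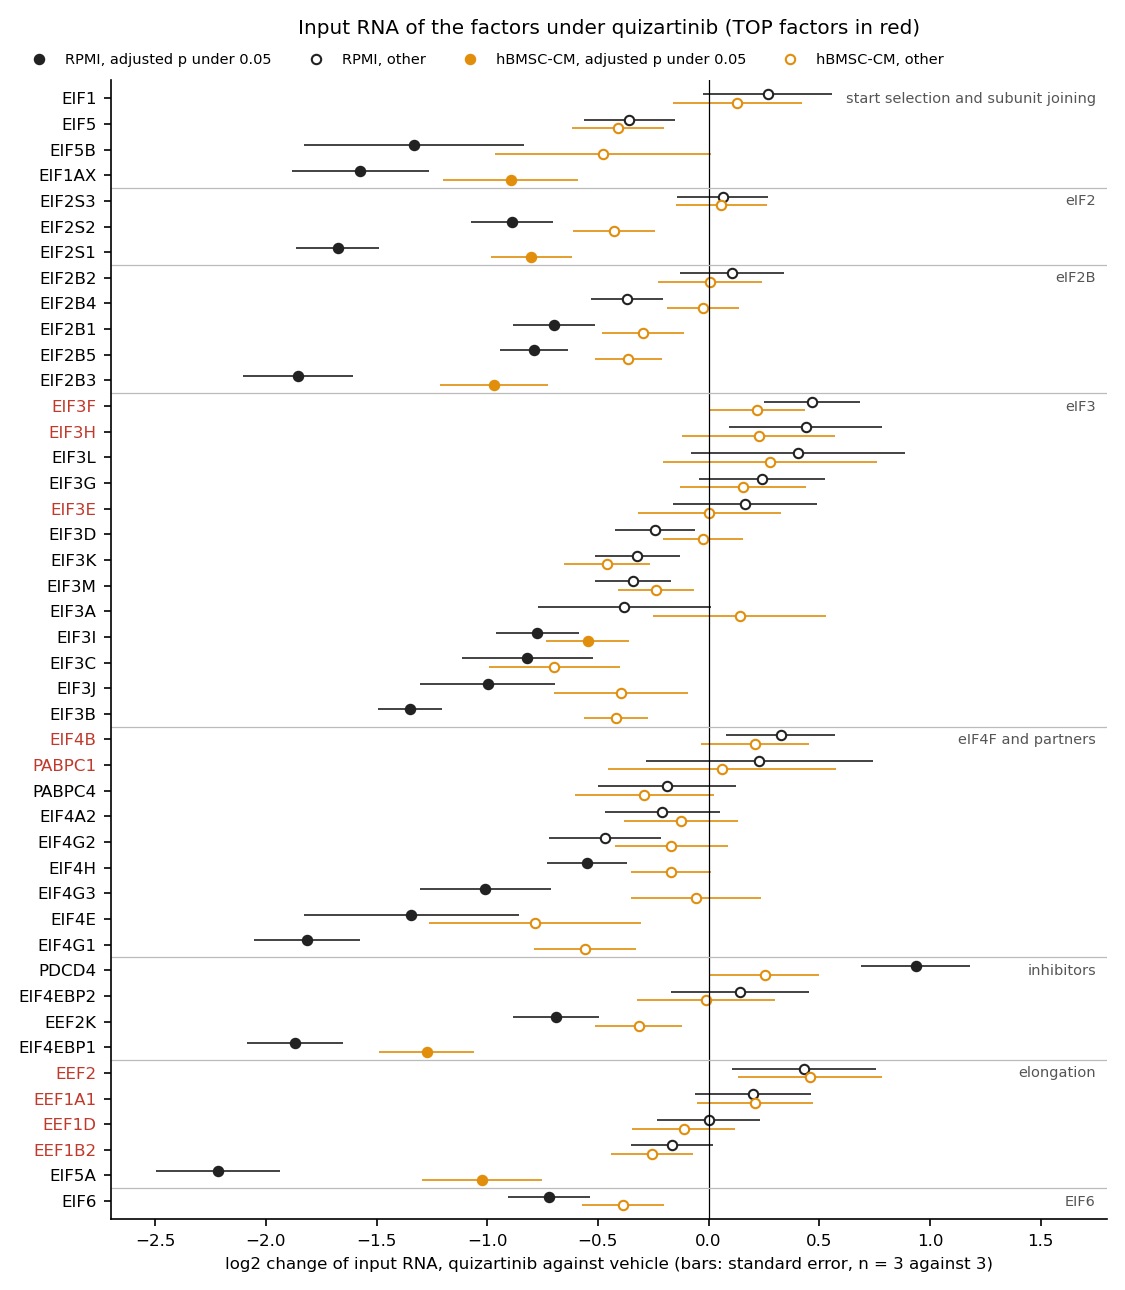
Each row is a factor, ordered by role and by change in RPMI, and the horizontal axis is the log2 change of input RNA under quizartinib against vehicle in RPMI (black) and in hBMSC-CM (orange), with standard errors from 3 against 3 cultures. Filled points have an edgeR adjusted p under 0.05, and TOP factors, in red, have no filled point while EIF5A and EIF4EBP1 lie farthest to the left in RPMI at -2.22 and -1.87.

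Among the factors of eIF4F, EIF4G1 (chr3:184314495-184335358), the scaffold that joins the cap complex to eIF3, had input values of 373, 491 and 407 CPM with vehicle and 112, 149 and 99.7 CPM with quizartinib. The highest quizartinib culture was far below the lowest vehicle culture. EIF4G1 fell by 1.81 on the log2 scale (SE 0.24, 3.52-fold lower, edgeR adjusted p = 2.13e-07). EIF4E, the cap-binding subunit, had 64.0, 49.6 and 38.8 CPM with vehicle and 25.4, 19.5 and 15.1 CPM with quizartinib. These groups did not overlap, and EIF4E fell by 1.34 (SE 0.48, edgeR adjusted p = 0.0287), a call that was lost without the everolimus-alone libraries (adjusted p = 0.0614, range over all alternatives 2.36e-07 to 0.103). EIF4G3, a paralog of EIF4G1, and EIF4H, a cofactor of the helicase, were also called, with log2 changes of -1.01 and -0.55. The remaining 5 of the 9 tested factors of this role did not pass, among them the TOP factors EIF4B at 0.32 and PABPC1 at 0.23.

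The repressors of translation moved in both directions. EIF4EBP1, the eIF4E-binding repressor that mTORC1 releases, had 163, 116 and 117 CPM with vehicle and 36.2, 31.4 and 40.8 CPM with quizartinib. No culture of one group reached the other, and EIF4EBP1 fell by 1.87 (SE 0.22, 3.66-fold lower, edgeR adjusted p = 2.19e-08). EIF4EBP2, its paralog, had a log2 change of 0.14 that did not pass. PDCD4 (chr10:110871795-110900006), which binds the helicase eIF4A and keeps it inactive, was the 1 factor that rose. Its input values were 81.0, 89.7 and 82.9 CPM with vehicle and 174, 169 and 142 CPM with quizartinib, again without overlap, for a log2 change of 0.94 (SE 0.25, 1.91-fold higher, edgeR adjusted p = 0.0030). EEF2K fell by 0.69 (SE 0.20, edgeR adjusted p = 0.0057), from 35.9, 27.9 and 35.3 CPM to 17.1, 26.4 and 17.9 CPM, where the second quizartinib culture lay just under the lowest vehicle culture. That call was lost without a filter on low counts (adjusted p = 0.079, range over all alternatives 0.000505 to 0.0788).

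Factors that bring the initiator tRNA fell in part. EIF2S1, the alpha subunit of eIF2 whose phosphorylation halts initiation, went from 118, 104 and 89.9 CPM to 35.7, 31.8 and 30.0 CPM, a log2 change of -1.68 (SE 0.19). EIF2S2 was called at -0.89 and EIF2S3, which has a pyrimidine run, was not called at 0.06. In eIF2B, the exchange factor that recharges eIF2, 3 of 5 subunits fell. EIF2B3 (chr1:44850522-44986722) went from 46.6, 41.9 and 39.3 CPM to 13.8, 13.0 and 8.56 CPM, with no overlap and a log2 change of -1.85 (SE 0.25, edgeR adjusted p = 2.86e-07), and EIF2B5 and EIF2B1 were called at -0.79 and -0.70. EIF2B2 and EIF2B4 did not pass, at 0.11 and -0.37.

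Of the 13 subunits of eIF3, the scaffold of the small subunit, 4 fell and 9 did not pass. This share called was close to the 34.6% of all genes. EIF3B (chr7:2354086-2380745), a core subunit, had 475, 581 and 599 CPM with vehicle and 208, 232 and 209 CPM with quizartinib. The groups lay far apart, and EIF3B fell by 1.35 (SE 0.15, edgeR adjusted p = 5.53e-09). EIF3J, EIF3C and EIF3I were called at -1.0, -0.82 and -0.77. EIF3C has a near-identical copy, EIF3CL, with 494 to 2049 counts per library, so its value is uncertain. The TOP subunits EIF3F, EIF3H and EIF3E had log2 changes of 0.47, 0.44 and 0.16.

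In the elongation group EIF5A was the 1 called of 5 tested, and it had the largest log2 change of all 44 factors tested in this comparison. EIF5A, which helps the ribosome through sequences that stall peptide bond formation, lies at chr17:7306999-7312463. Its input values were 923, 842 and 981 CPM with vehicle and 203, 193 and 195 CPM with quizartinib. The quizartinib cultures lay close together and far below the vehicle cultures, and EIF5A fell by 2.22 (SE 0.28, 4.64-fold lower, edgeR adjusted p = 1.00e-07). Its copy EIF5AL1 had 274 to 3404 counts per library. The TOP elongation factors were not called. EEF1A1 had 18920, 16569 and 17010 CPM with vehicle and 24490, 19787 and 16092 CPM with quizartinib, and the third quizartinib culture was below all 3 vehicle cultures (log2 change 0.20, SE 0.26). EEF2 had 5851, 4348 and 4909 CPM against 9501, 5847 and 5002 CPM, with overlap (log2 change 0.43, SE 0.33).

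Among the factors that select the start codon and join the subunits, EIF1AX and EIF5B were called at -1.57 and -1.33, and EIF1 and EIF5 were not called at 0.27 and -0.36. EIF6, which holds the large subunit apart from the small one, went from 107, 117 and 122 CPM to 78.7, 66.4 and 64.9 CPM, without overlap, and fell by 0.72 (SE 0.19, edgeR adjusted p = 0.0025). Of 37 other tested genes of the pathway, 9 were lower and 2 were higher, which is a smaller share called than the 34.6% of all genes. The lower ones were ABCE1, which recycles ribosomes, at -2.04, the release factors GSPT1 and ETF1 at -1.59 and -0.93, EEF1AKMT1 at -1.75, EEF1E1 at -1.50, LARP1, which binds TOP messages, at -1.32, DOHH, which completes the hypusine of eIF5A, at -1.28, LARP4 at -0.82 and the mTORC1 subunit RPTOR at -0.57. The higher ones were 2 negative regulators of mTORC1, DEPTOR at 1.01 and TSC1 at 0.59. The 82 cytosolic ribosomal protein genes, which are TOP messages too, had a median of 0.13, with 5 lower.

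Cultures with the same replicate number deviated together, except those with everolimus alone. A fit with the replicate number as a block within each fraction and without the everolimus-alone libraries, chosen after the data were seen, called 28 factors in this comparison, including all 20 above, where 54.6% of all genes were called. In it 4 TOP factors were higher, EIF3F at 0.55, EIF3H at 0.52, EEF2 at 0.45 and EIF4B at 0.39, and among the other factors 21 were lower and 3 higher.

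**Figure D2:**
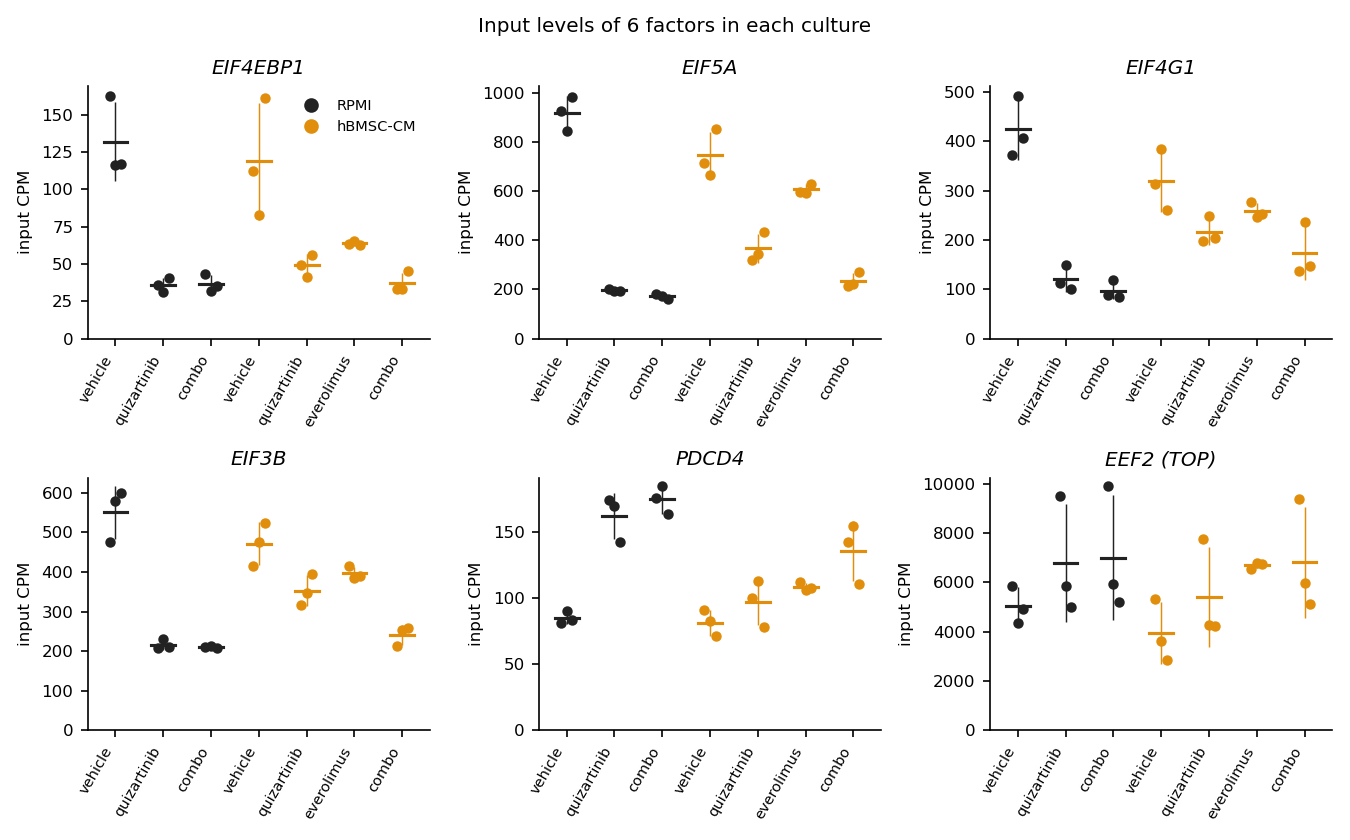
Input level (TMM-scaled CPM, linear axes from 0) of 6 factors in each of the 21 cultures, with black points for RPMI, orange points for hBMSC-CM, and a bar and line for the mean and SD of 3 cultures. EIF5A, EIF4G1 and EIF3B have their lowest means with combo in RPMI, PDCD4 has its highest mean there, and EEF2 overlaps between vehicle and quizartinib in both media.

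Before drug effects on polysomes are given, the loading of each message in vehicle-treated RPMI cells sets the base. Comparing heavy polysomes with input, edgeR called 35 of the 44 factors, 18 higher and 17 lower, where 65.4% of all genes were called. EIF6 at 1.87 (SE 0.19), EIF2B2 at 1.64, EIF5A at 1.47 and EIF2B4 at 1.44 were highest on the log2 scale. EIF5B at -3.71 (SE 0.54), EIF4G3 at -3.59, EIF3A at -3.30 and PABPC1 at -2.93 were lowest. PABPC1, the poly(A)-binding protein, had log2 polysome to input ratios of -2.99, -3.65 and -2.38 in the 3 vehicle cultures. EIF6 had 2.10, 2.02 and 1.45, so these messages differed in every culture.

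TOP factors lay at both ends of that range, with 3 higher (EEF1D at 1.23, EEF2 at 0.99 and EIF3F at 0.69) and 4 lower (PABPC1, EIF3H at -1.99, EIF3E at -1.73 and EIF4B at -0.90). EEF1A1 at -0.36 and EEF1B2 at 0.38 did not pass. Of the messages of initiation control, EIF4EBP1 was higher at 0.98, EIF2B3 at 0.69 and EIF4G1 at 0.56, and EIF4E was lower at -1.50, PDCD4 at -1.36 and EIF4A2 at -0.99. With library size as the sole scaling the median of all genes moved from -0.06 to -0.61, EIF4G1 changed sign to -0.02, and EEF2, EIF2B3 and EIF4EBP1 were no longer called. With 1 vehicle culture left out, EIF4G1, whose groups overlapped, was called in 1 of 3 fits (0.31 to 0.79, lost without the first or the second culture), and EIF4E in 2 of 3 (-2.28 to -1.03). EIF4E and EEF2 were lost without the first culture and EIF2B3 without the second. Over the 44 factors the polysome difference went with the G+C content of the canonical transcript (Pearson's r = 0.66, Spearman's rho = 0.75) and inversely with its length (r = -0.44, rho = -0.47). These points share the same 6 libraries, and the part of G+C content and length in the polysome values was not tested.

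**Figure D3:**
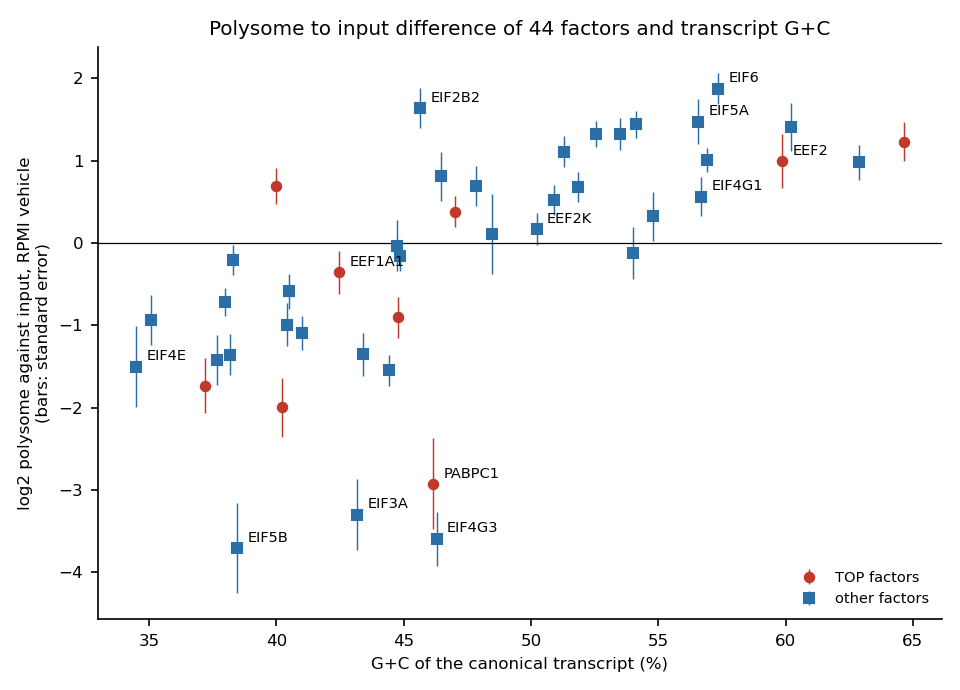
Each point is a factor (44 tested), with the G+C content of its canonical transcript in percent on the horizontal axis and the log2 difference between heavy polysomes and input in vehicle-treated RPMI cells on the vertical axis, with standard errors from 3 against 3 libraries. TOP factors (circles) run from PABPC1 at -2.93 to EEF1D at 1.23, and factors of high G+C content lie mostly above 0.

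Quizartinib in RPMI changed the polysome share of 1 factor beyond its input change, the TOP message EEF1B2. EEF1B2 (chr2:206159585-206162928), a nucleotide exchange subunit that recharges eEF1A, had polysome values of 976, 1150 and 1030 CPM with vehicle and 393, 301 and 284 CPM with quizartinib. Its input values were 891, 781 and 752 CPM against 885, 712 and 564 CPM. The log2 ratio of polysome to input was 0.13, 0.56 and 0.45 with vehicle and -1.17, -1.24 and -0.99 with quizartinib, without overlap. Relative to input it fell by 1.52 (SE 0.26, 2.88-fold lower, edgeR adjusted p = 0.00086), and it was called with each culture left out in turn, from -1.67 to -1.43. This was 1 of 44 factors, where 1.55% of all genes were called. By edgeR 12 factors, 3 TOP and 9 other, and 2014 of all 12939 genes had an unadjusted p under 0.05.

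The median relative change was -0.61 over the 9 TOP factors, with 7 negative, 0.10 over the 35 other factors and 0.15 over all genes. The ribosomal protein genes had a median of -1.56, and 60 of 82 were lower. Behind EEF1B2, EEF1D was at -0.84, EIF3F at -0.75, EIF3E at -0.65, EEF1A1 at -0.61, EEF2 at -0.48, EIF3H at -0.11, EIF4B at 0.13 and PABPC1 at 0.27, and none of these passed. The median of all genes was 0.0063 with RLE factors and 0.38 with library size as the sole scaling, and EIF4B had -0.02 with RLE factors and with DESeq2. In sum the TOP factors took 2.12 ± 0.63% of polysome counts with vehicle and 2.13 ± 0.26% with quizartinib (SD, n = 3). Of input counts they took 3.13 ± 0.22% and 3.87 ± 0.69%.

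**Figure D4:**
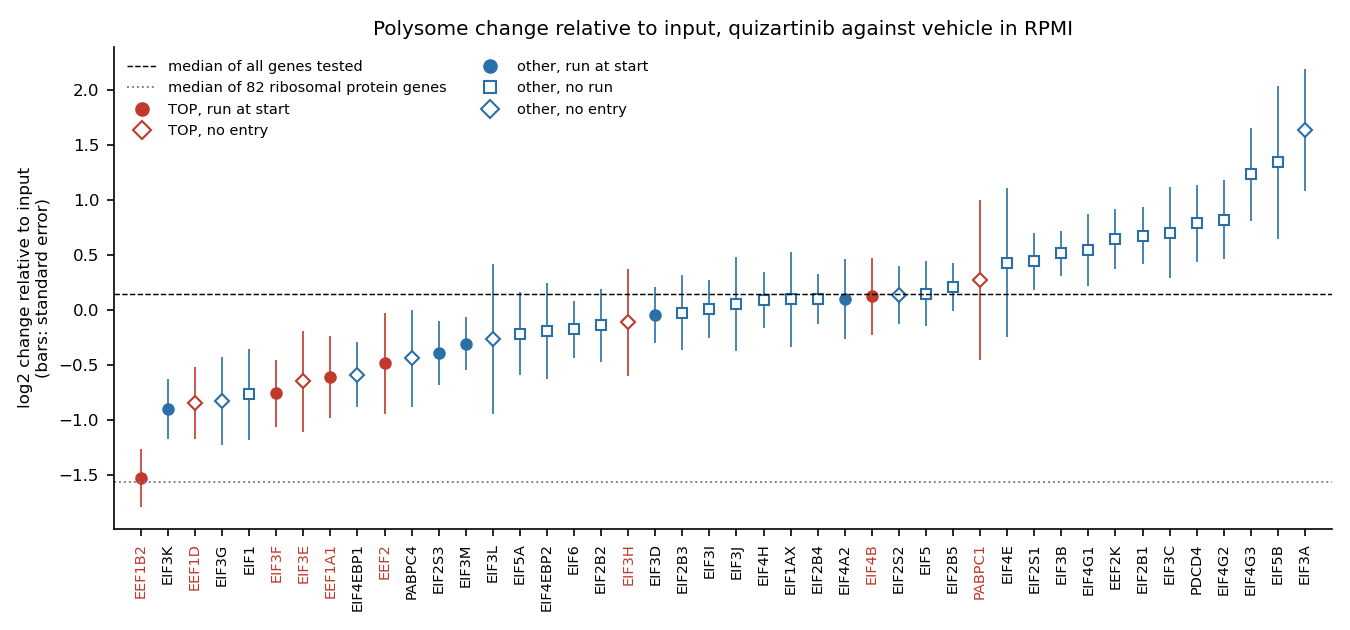
Factors ordered by the log2 change of heavy polysomes relative to input under quizartinib in RPMI (vertical axis, with standard errors from 3 against 3 cultures), in red for TOP and blue for other factors, filled circles for a pyrimidine run at the RefSeq start, squares for no run and diamonds for no entry. EEF1B2 at -1.52 lies near the dotted line of the ribosomal protein genes at -1.56, and EIF3A at 1.64 lies farthest above the dashed line of all genes at 0.15.

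The ratios by culture show how even these values were. EEF1D, another exchange subunit of eEF1B, had log2 ratios of 1.63, 1.32 and 0.76 with vehicle and 0.48, 0.45 and 0.26 with quizartinib, which did not overlap. EIF3F had 0.46, 0.96 and 0.65 against -0.40, 0.44 and -0.33, and the second quizartinib culture came close to the vehicle values. EEF1A1 had -0.46, -0.87 and 0.09 against -1.22, -1.10 and -0.53, with overlap between the groups. PABPC1 had -2.99, -3.65 and -2.38 against -3.30, -3.61 and -1.11, so its positive change came from the third quizartinib culture, and without that culture the change was -0.57.

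Among the other factors the lowest value was that of EIF3K, and factors with and without a pyrimidine run fell. EIF3K, an eIF3 subunit with a run, had log2 ratios of 1.23, 1.57 and 1.17 with vehicle and 0.38, 0.56 and 0.37 with quizartinib. Its groups were clearly apart, yet its change of -0.90 (SE 0.27, edgeR adjusted p = 0.091) did not pass. The others with a run had smaller changes, EIF2S3 -0.39, EIF3M -0.30, EIF3D -0.04 and EIF4A2 0.10. EIF1, whose start has no run, went from a mean ratio of 0.71 to 0.03. EIF3G, with no entry, went from 1.40 to 0.53, while other factors without a run rose, such as EIF3B from 1.00 to 1.52. At the other end EIF3A, the largest eIF3 subunit, had a change of 1.64 (SE 0.56, edgeR adjusted p = 0.14), with ratios of -2.93, -3.58 and -3.38 against -2.65, -2.75 and -0.32, so the third quizartinib culture stood far above the others. EIF4G3 at 1.24 also had its highest ratio in that culture, -1.43 against -2.87 and -3.22. Across the 44 factors the change had r = 0.48 and rho = 0.45 with transcript length, over the same 12 libraries, and the part of length was not tested.

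With the replicate block and without the everolimus-alone libraries, 14 factors were called here, where 14% of all genes were called. Of the 9 TOP factors 5 were lower, EEF1B2 at -1.69, EEF1D at -1.04, EIF3F at -0.98, EIF3E at -0.96 and EEF1A1 at -0.72. Of the 35 other factors 6 were lower, EIF3K at -1.07, EIF3G at -1.05, EIF1 at -0.87, EIF4EBP1 at -0.78, EIF2S3 at -0.59 and PABPC4 at -0.59, and 3 were higher, EIF3A at 1.25, EIF4G3 at 0.90 and EIF4G2 at 0.63. EEF1B2 was the 1 factor called with and without the block.

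The TOP factors were set against the other factors within each culture as the difference of their median log2 polysome to input ratios, which a scaling factor of a library moves equally in both groups. In RPMI it was -0.29, -0.75 and -0.09 with vehicle, -1.19, -1.50 and -0.87 with quizartinib and -1.16, -1.25 and -0.90 with combo. Every quizartinib and combo culture in RPMI lay below every vehicle culture. The means were -0.38 ± 0.33, -1.19 ± 0.31 and -1.11 ± 0.18 (SD, n = 3). In hBMSC-CM it was -0.39, -1.09 and -0.24 with vehicle, -1.04, -1.30 and -0.42 with quizartinib and -1.02, -1.52 and -0.84 with combo, and these groups overlapped. Their means were -0.57 ± 0.45, -0.92 ± 0.45 and -1.13 ± 0.35. With everolimus alone the 3 cultures gave -0.60, -0.63 and -0.62, a mean of -0.62 ± 0.013 that lay inside the range of the vehicle cultures.

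The difference was also taken between cultures of the same number. Quizartinib minus vehicle in RPMI was -0.90, -0.75 and -0.78 (mean -0.81 ± 0.077), and in hBMSC-CM it was -0.65, -0.22 and -0.19 (mean -0.35 ± 0.26). All 3 differences in RPMI lay below all 3 in hBMSC-CM. In RPMI the median of the TOP factors alone changed by -0.71, -0.23 and -0.62, and that of the other factors by 0.18, 0.52 and 0.16. In hBMSC-CM the TOP median changed by -0.64, -0.35 and 0.04, and that of the other factors by 0.01, -0.13 and 0.23. For the TOP minus other score, combo minus quizartinib was 0.08 ± 0.14 in RPMI and -0.21 ± 0.21 in hBMSC-CM, which was 0.01, -0.21 and -0.42 by number. Under quizartinib, hBMSC-CM minus RPMI was 0.15, 0.19 and 0.45 (mean 0.26 ± 0.16), positive in 3 of 3, while with vehicle it was -0.19 ± 0.13. With vehicle the TOP median alone differed by -0.0026 and that of the other factors by 0.19. Under quizartinib these means were 0.20 and -0.06. The ribosomal protein genes were scored by their own median ratio, with no other factors subtracted. For them quizartinib minus vehicle was -1.58 ± 0.30 in RPMI and -0.38 ± 0.32 in hBMSC-CM. The median ratio of the TOP factors alone, the like measure, gave -0.52 ± 0.26 in RPMI and -0.32 ± 0.34 in hBMSC-CM. These scores are descriptions with no test, since the genes were chosen with earlier results of the data known.

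**Figure D5:**
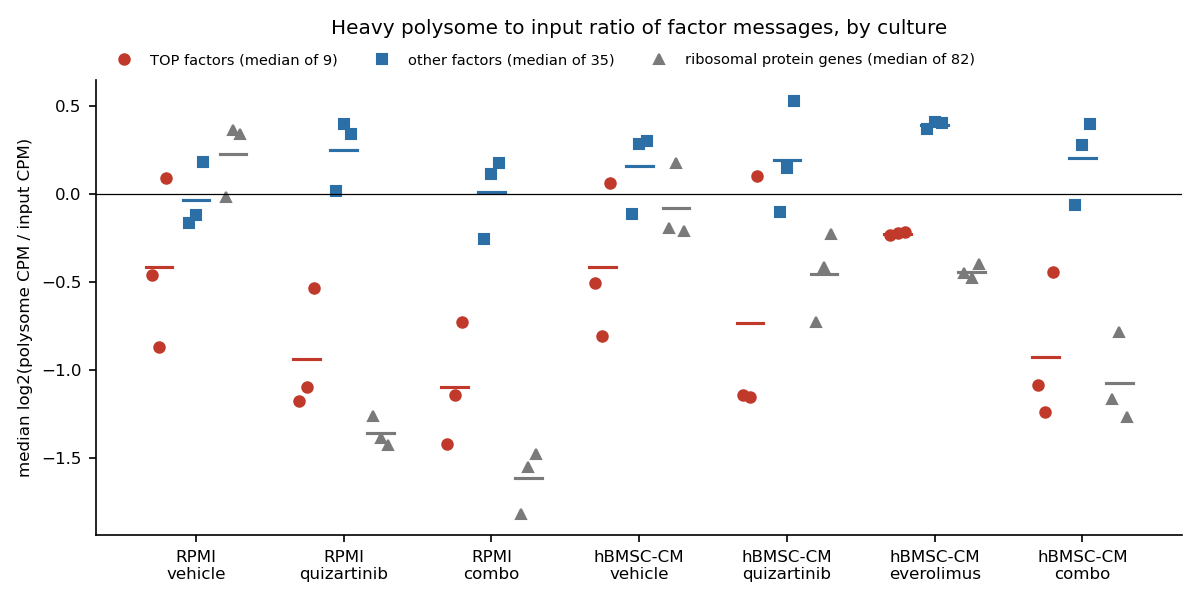
Median log2 polysome to input ratio (vertical axis) of the 9 TOP factors (red), the 35 other factors (blue) and 82 ribosomal protein genes (grey) in each of 21 cultures over the 7 conditions, with bars at the mean of 3. In RPMI the ribosomal protein genes are lower with quizartinib and combo than with vehicle in every culture, the TOP factors are lower in the mean with overlap between cultures, and the 3 everolimus-alone cultures nearly coincide.

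In hBMSC-CM quizartinib lowered the input RNA of 6 of the 44 factors by edgeR, all of them other factors, where 12.3% of all genes were called. By share the factors were called about as often as all genes. DESeq2 and limma voom each called 7. The median was -0.32 over the other factors and 0.21 over the TOP factors. The stromal marker sum was 2.86 to 7.44 CPM with vehicle and 11.6 to 30.2 CPM with quizartinib, and its part was not tested. EIF4EBP1 had 112, 83.1 and 161 CPM with vehicle and 49.5, 41.5 and 56.3 CPM with quizartinib, without overlap, and fell by 1.27 (SE 0.21, edgeR adjusted p = 0.00016). EIF5A had 715, 666 and 852 CPM against 321, 343 and 435 CPM, also apart, and fell by 1.02 (SE 0.27, edgeR adjusted p = 0.011), a call lost without the third vehicle culture.

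EIF2B3 fell by 0.97 (SE 0.24, edgeR adjusted p = 0.0070), from 38.3, 30.6 and 33.7 CPM to 18.1, 16.4 and 17.8 CPM. EIF1AX, EIF2S1 and EIF3I were called at -0.89, -0.80 and -0.55. EIF1AX was no longer called when any 1 of the 6 cultures was left out, and EIF3I was called in 1 of those 6 fits. Without the everolimus-alone libraries 4 factors were called, and without the third vehicle culture 3. With the block as well, 18 were called, 16 other factors lower and the TOP factors EEF2 at 0.48 and EIF3F at 0.25 higher, where 34.9% of all genes were called.

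Quizartinib in hBMSC-CM gave no call on polysomes relative to input among the factors, where 0% of all 12939 genes were called. By edgeR 0 factors and 288 genes had an unadjusted p under 0.05, and DESeq2 and limma voom called 0 factors each. The median was -0.26 over the TOP factors, with 7 of 9 negative, 0.05 over the other factors and -0.39 over the ribosomal protein genes. EEF1B2 had log2 ratios of -0.08, 0.49 and 0.10 with vehicle and -0.46, -0.46 and 0.10 with quizartinib, so the third quizartinib culture lay within the vehicle range.

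Under quizartinib the 2 media were compared directly. In input RNA 4 of 44 factors were higher in hBMSC-CM, all other factors, where a similar share, 8.16%, of all genes were called. DESeq2 and limma voom called 6 each. EIF3B had 208, 232 and 209 CPM in RPMI and 317, 346 and 394 CPM in hBMSC-CM, without overlap, for a log2 difference of 0.70 (SE 0.14, 1.63-fold higher, edgeR adjusted p = 0.00091). EIF4G1 was higher by 0.85 (SE 0.23, edgeR adjusted p = 0.016), with 112, 149 and 99.7 CPM in RPMI and 197, 248 and 205 CPM in hBMSC-CM. EIF5A, at 321 to 435 CPM in hBMSC-CM against 193 to 203 CPM in RPMI, was higher by 0.89 (SE 0.27, edgeR adjusted p = 0.031). EIF2S1 was higher by 0.69 (SE 0.18, edgeR adjusted p = 0.012), with 58.77, 60.03 and 38.97 CPM against 35.7, 31.8 and 30.0 CPM.

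EIF3B was called with every 1 of the 6 cultures left out and lost without a filter on low counts. EIF4G1 was called in 3 of those 6 fits, EIF5A in 2 and EIF2S1 in 2. Leaving out any RPMI quizartinib culture left 2 calls, and without the everolimus-alone libraries EIF5A was lost and 3 were left. All 9 TOP factors had negative values in input, with a median of -0.33. With the block and without the everolimus-alone libraries 16 factors were called, where 23.1% of all genes were called. In that fit 4 TOP factors were lower, PABPC1 at -0.59, EIF4B at -0.43, EIF3F at -0.43 and EIF3H at -0.41, and 8 other factors were higher and 4 lower, among them the repressors PDCD4 at -0.81 and EIF4EBP2 at -0.42. Of the other pathway genes 1 was called in the fit without a block, the mTORC1 inhibitor DEPTOR at -1.57.

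Between the media under quizartinib no factor was called on polysomes relative to input, where 0% of all genes were called. By edgeR 2 factors and 450 genes had an unadjusted p under 0.05, and DESeq2 and limma voom called 0 factors. The TOP factors were positive in 9 of 9, with a median of 0.35, against -0.04 over the other factors, -0.09 over all genes and 0.87 over the ribosomal protein genes. In input these 9 were all negative. In sum they took 2.13 ± 0.26% of polysome counts in RPMI and 2.12 ± 0.69% in hBMSC-CM (SD, n = 3). Of input counts they took 3.87 ± 0.69% and 3.29 ± 0.70%. EEF1B2 had log2 ratios of -1.17, -1.24 and -0.99 in RPMI and -0.46, -0.46 and 0.10 in hBMSC-CM. These ratios did not overlap, and the difference was 0.86 (SE 0.26, edgeR adjusted p = 0.80, unadjusted p = 0.0022). With the block and without the everolimus-alone libraries 2 factors were called, both TOP, EEF1B2 at 0.96 and EIF3E at 0.94, where 1.07% of all genes were called.

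The effect of quizartinib itself differed between the media for 2 factors in input RNA, as an interaction term, where 1.96% of all genes were called. The change of EIF3B was less negative in hBMSC-CM by 0.93 (SE 0.20, edgeR adjusted p = 0.0077), from -1.35 in RPMI to -0.42, and it was called with each of the 12 cultures left out. For EIF4G1 the difference was 1.26 (SE 0.33, edgeR adjusted p = 0.033), from -1.81 to -0.56, and it was called in 5 of 12 such fits. EIF4G1 was also lost without the everolimus-alone libraries, and EIF3B without a filter on low counts. EIF5A had a difference of 1.19 (SE 0.38) that did not pass (edgeR adjusted p = 0.12). DESeq2 called 3 factors and limma voom 2.

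Over the TOP factors the median difference in input was -0.11. With the block and without the everolimus-alone libraries 8 factors were called in input, where 9.83% of all genes were called. EIF4G1, EIF5A, EIF4G3, EIF3B, EIF2B3, EIF2S1 and EIF1AX were positive, from 1.23 to 0.63, and PDCD4 was negative at -0.73. On polysomes relative to input 0 factors were called, where 0% of all genes were called (2 factors and 624 genes by edgeR at an unadjusted p under 0.05, 0 factors by DESeq2 and limma voom). EEF1B2 had a difference of 1.07 (SE 0.37, edgeR adjusted p = 0.89), and with the block it was the 1 factor called, at 1.15, where 1.13% of all genes were called. The ribosomal protein genes had a median of 1.27.

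With everolimus alone in hBMSC-CM 1 factor was lower in input than with vehicle, EIF4EBP1, where 0.41% of all genes were called. Its values were 112, 83.1 and 161 CPM with vehicle and 63.1, 65.6 and 63.0 CPM with everolimus. The everolimus cultures lay below all vehicle cultures, and EIF4EBP1 fell by 0.89 (SE 0.21, edgeR adjusted p = 0.045), a call kept in 1 of the 6 fits that left out a culture and lost with RLE factors, with no filter on low counts and with the compared groups alone (adjusted p from 0.0018 to 0.472 over all alternatives). A replicate block within each fraction, though the numbers did not pair these cultures, called 6 factors, EIF4EBP1, EIF2B3, EIF2S1, EIF2S2 and EIF5 lower and the TOP factor EEF2 higher at 0.84. The share of all genes that this fit called is not given here, so the count is not a result about the factors. The everolimus cultures are those with the small spread, and a fit without them has no such comparison. Whether they were grown together with the vehicle cultures is not given in the sources used here. An effect of the drug therefore cannot be told apart from a difference between sets of cultures. The median was 0.25 over the TOP factors and -0.15 over the other factors. On polysomes relative to input 0 factors were called, where 0% of all genes were called (1 factor, EIF4G1 at -1.0, and 573 genes by edgeR at an unadjusted p under 0.05, 0 factors by DESeq2 and limma voom). The TOP median was -0.20 and the ribosomal protein median -0.44.

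Adding everolimus to quizartinib gave no call among the factors in either medium by edgeR. In hBMSC-CM 0.24% of all genes were called in input. By edgeR 6 factors and 789 genes had an unadjusted p under 0.05, DESeq2 called 1 factor and limma voom 0. EIF3B had 317, 346 and 394 CPM with quizartinib and 212, 253 and 259 CPM with combo, without overlap, and a log2 change of -0.55 (SE 0.14, edgeR adjusted p = 0.11). EIF5A had 321, 343 and 435 CPM with quizartinib and 214, 224 and 269 CPM with combo, also apart, at -0.64 (edgeR adjusted p = 0.64). With the block and without the everolimus-alone libraries 7 factors were called, where 4.68% of all genes were called. EIF2B3 at -0.66, EIF5A at -0.61, EIF3B at -0.52 and EIF2B5 at -0.45 were lower, and PDCD4 at 0.51, EIF1 at 0.45 and PABPC4 at 0.44 were higher.

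In hBMSC-CM on polysomes relative to input the combo against quizartinib called 0% of all genes and 0 factors, with 273 genes and 2 factors at an unadjusted p under 0.05 by edgeR and 0 factors by DESeq2 and limma voom. Those 2 were TOP factors, EIF3E at -1.02 and EEF1B2 at -0.72. EEF1B2 had log2 ratios of -0.46, -0.46 and 0.10 with quizartinib and -1.15, -0.90 and -0.93 with combo, without overlap. All 9 TOP factors were negative, with a median of -0.28, against -0.06 over the other factors, 0.05 over all genes and -0.62 over the ribosomal protein genes. In sum the TOP factors took 2.12 ± 0.69% of polysome counts with quizartinib and 2.13 ± 0.43% with combo (SD, n = 3). Of input counts they took 3.29 ± 0.70% and 3.93 ± 0.78%.

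In RPMI the same addition called 0.00773% of all genes in input and 0% on polysomes relative to input, and 0 factors in both. No factor had an unadjusted p under 0.05 by edgeR in either, where 172 and 93 genes did, and DESeq2 and limma voom called 0 factors. The TOP factors had a median of -0.11 on polysomes, negative in 9 of 9, and the ribosomal protein genes -0.27. Of these TOP factors EEF1D, EIF3F and EIF4B had only -0.0074, -0.0082 and -0.0092, and most of the other factors were negative too. EEF1B2 had ratios of -1.99, -1.44 and -1.18 with combo against -1.17, -1.24 and -0.99 with quizartinib, which overlapped. Between the media, the effect of this addition differed for 0% of genes and 0 factors in input and for 0% and 0 on polysomes. By edgeR 2 factors and 218 genes in input, and 1 factor and 67 genes on polysomes, had an unadjusted p under 0.05, and the other tools called 0 factors.

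Without drug, hBMSC-CM against RPMI called 1.51% of all genes in input and 0 factors, with 970 genes and 0 factors at an unadjusted p under 0.05 by edgeR, and DESeq2 and limma voom called 0 factors too. Of the 44 factors 41 had negative values, with a median of -0.20 against -0.01 over all genes. With the block and without the everolimus-alone libraries PABPC4 at -0.61, EIF1AX at -0.37 and EIF4H at -0.34 were lower, 3 of 44 factors where 7.03% of all genes were called. PABPC4, a paralog of PABPC1, had 231, 197 and 209 CPM in RPMI and 148, 142 and 130 CPM in hBMSC-CM, without overlap. On polysomes relative to input 0% of genes and 0 factors were called, with 211 genes and 0 factors at an unadjusted p under 0.05 by edgeR and 0 factors by DESeq2 and limma voom. The TOP median was 0.17 and the ribosomal protein median -0.35.

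The ratios of the TOP factors went together to unlike degrees over the 21 cultures. Each TOP factor's log2 polysome to input ratio was set against the mean of the other 8 after scaling each to unit spread. Pearson's r was 0.88 for EEF1A1, 0.80 for EIF3E, 0.71 for EIF3H, 0.70 for EEF1B2 and 0.69 for EEF2, and it was 0.56 for EIF4B, 0.52 for PABPC1, 0.13 for EEF1D and 0.11 for EIF3F. Of the other factors with a pyrimidine run, EIF2S3 had r = 0.90 with the mean of all 9, EIF3D 0.46, EIF3M 0.42, EIF3K 0.37 and EIF4A2 0.11. EIF2S3 had ratios of -1.35, -1.19 and -0.79 with vehicle and -1.82, -1.70 and -1.02 with quizartinib in RPMI, with overlap. Outside the 46 genes the ratios most like the TOP mean were those of RPL5 (r = 0.93), OLA1 (0.92), RPL14 (0.88), TOMM20 (0.88) and RPL14P1 (0.88), a pseudogene of RPL14. These correlations are over 21 cultures that share conditions and replicate numbers, and they are given as descriptions. They mix differences between conditions with those between cultures of 1 condition, so a low r does not show a different drug response. EEF1D and EIF3F had mean ratios of 1.24 and 0.69 with vehicle and 0.40 and -0.10 with quizartinib in RPMI, and EEF1B2 had 0.38 and -1.13.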

How the data were processed

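RNA of MOLM-13 cells was sequenced as input and heavy polysomes from 21 cultures (42 libraries, 7 conditions, 3 cultures each, described by the study as biological replicates). Per its methods, cells were treated with cycloheximide before harvest, polysomes were separated on a sucrose gradient, and poly(A) libraries were sequenced as paired ends. The authors trimmed reads with BBDuk, aligned them with STAR 2.6.0a to Ensembl hg38.p12 and deposited raw read counts per gene, with no normalization. Total counts were 19.4 to 38.8 M, so for counts this large the spread between cultures, not counting error, set the precision.

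Rows with the same name were summed (58884 rows, 57353 names), and the 12939 genes that reached 1 in both mean count and mean CPM were tested. The main test was edgeR 4.0.16 (R 4.3.3), quasi-likelihood with robust dispersion, TMM factors, 14 group means over all 42 libraries and no block, with Benjamini-Hochberg adjustment over all genes tested and a threshold of 0.05. A polysome change relative to input is an interaction term, the change in polysomes less that in input. Ratios per culture used log2 CPM with a prior count of 2. Alternatives were limma voom (3.58.1), DESeq2 (1.42.0), RLE factors, library size as the sole scaling, no filter on low counts, a fit of the compared groups alone, replicate blocks, each culture left out, and for the group scores a prior count of 0.5, the mean over genes and grouping by the run at the start. Fits without the everolimus-alone libraries were chosen after seeing the data. The code was checked on simulated counts. Figures were drawn with matplotlib 3.10.9.

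Samples of different groups with the same replicate number in the labels deviated together (correlation over 0.1 in every pair) among the 6 conditions other than everolimus alone, in both fractions, so the numbers were taken to pair those cultures. Over all conditions 45 of 63 such pairs in input (median 0.41) and 46 of 63 in polysomes (median 0.44) were over 0.1.

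The genes and lists were chosen with earlier results of these data known. Named with values were a list of 16 factors that centre on eIF4F, its repressors and elongation, where called or where the text turns on them, and up to 4 called factors in each direction per comparison. EEF1A1 and EEF2 in input, EIF5A in the difference between media, EEF1D, EIF3F, EIF3K, EIF3A, EIF4G3 and EIF2S3 on polysomes, PABPC4 and the factors called with the block were added after their values were seen, as were values of uncalled factors.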

Additional observations from a re-analysis of the deposited data

Results flagged for a closer look

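For 2 factors the effect of quizartinib on input RNA differed between the media by the test of the difference itself, which is what drew attention to them. EIF3B differed by 0.93 on the log2 scale, with -1.35 in RPMI and -0.42 in hBMSC-CM. EIF4G1 differed by 1.26, with -1.81 in RPMI and -0.56 in hBMSC-CM. EIF3B was called with each of 12 cultures left out in turn and lost without a filter on low counts. EIF4G1 was called in 5 of 12 such fits and lost without the everolimus-alone libraries.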

How the results depend on the processing

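Each value here is the number of the 44 factors called. The share of all genes called is given above for the main fit and the block without the everolimus-alone libraries only. With that block it rose too, from 1.55% to 14% on polysomes relative to input under quizartinib in RPMI. A count without that share is not a result about the factors. On polysomes relative to input under quizartinib in RPMI, 1 became 2 with DESeq2, RLE factors or library size as the sole scaling, 3 with no filter or 1 replicate block for both fractions, 13 with a replicate block within each fraction and 14 with that block and without the everolimus-alone libraries. For input RNA, the replicate block within each fraction and the same without everolimus-alone libraries gave 15 and 18 for quizartinib in hBMSC-CM, 4 and 7 when everolimus was added to quizartinib in hBMSC-CM (1 with DESeq2 and with 1 block), 1 and 3 for hBMSC-CM against RPMI without drug, and 10 and 16 for the media under quizartinib. The difference between media in the quizartinib effect gave 4, 6 and 8 with 1 block, the block within each fraction and the latter without everolimus-alone libraries, 4 with the compared groups alone, and 1 with library size as the sole scaling or without the everolimus-alone libraries. Everolimus alone gave 0 with RLE factors, no filter or the compared groups alone, 2 with 1 block and 6 with the block within each fraction. On polysomes the block without everolimus-alone libraries gave 2 for the media under quizartinib and 1 for the difference in the quizartinib effect. The block moved no other count of calls by over 1.5 times.

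Leaving out 1 culture gave 17 to 19 for quizartinib in RPMI, 3 to 5 in hBMSC-CM, 0 to 1 for everolimus alone (0 without any everolimus culture or vehicle culture 1 or 3), 2 to 3 for the media under quizartinib, 1 to 2 for the difference in the quizartinib effect and 29 to 34 for polysomes against input. The median difference of TOP and other factors with everolimus alone was -0.62, and -0.48 as a mean over genes or -0.59 when grouped by the run. EIF4B on polysomes under quizartinib in RPMI, 0.13, was -0.0242 with DESeq2, -0.0243 with RLE factors, -0.0590 without the everolimus-alone libraries, -0.0268 with the block as well, -0.0895 with the compared groups alone, and from -0.25 (without RPMI quizartinib culture 3) to 0.31 with 1 culture left out. It was also negative without RPMI vehicle culture 2. PABPC1, 0.27, ran from -0.57 (without RPMI quizartinib culture 3) to 0.78, and EIF4G1 in polysomes against input was -0.0243 with library size as the sole scaling. The cause of these changes was not tested. Of the values for named factors under alternatives, 719 kept their direction and side of the threshold, 24 passed it newly, 58 lost it and 9 turned in sign.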
